A study of Mus musculus with 6 samples.

Results

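RNAs crosslinked to pyruvate kinase M2 (PKM2) were compared with the RNA content of control embryonic stem cells, message by message and by the class of protein that each message encodes. Of the 6 libraries of the series, 3 enter the comparison. They are the 2 CLIP replicates of PKM2 and the single RNA library of siCtrl cells, and all 6535 rows of the deposited table (6532 gene symbols) were used. Both kinds of library came from E14, an established mouse embryonic stem cell line. The CLIP cells expressed PKM2 with a FLAG-HA tag, were crosslinked with UV light at 0.35 J/cm2, and their PKM2 was captured on beads against both tags. The RNA cells were wild type, received a non-targeting siRNA pool at 20 nM for 36 h, were passaged 16 h before harvest, and gave rRNA-depleted total RNA. Genotype, siRNA treatment and kind of library therefore differ together between the numerator and the denominator and cannot be told apart. No library from an untagged or mock capture enters the comparison, so a stop is counted whether it came from PKM2 or from background. The labels do not state that separate cultures gave the CLIP replicates, whose spread may be technical.

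PKM2 is the pyruvate kinase isoform of embryonic and proliferating cells and catalyses the last step of glycolysis. It has also been found to bind RNA and ribosomes. In iCLIP, UV light joins a protein to the RNA it touches, and reverse transcription tends to stop next to the joined base, so that stops are counted in place of reads. Proteins that are secreted or span a membrane are mostly made by ribosomes docked on the endoplasmic reticulum (ER), whereas cytosolic, nuclear and most mitochondrial proteins are made by ribosomes that are not docked there.

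The CLIP replicates held 677701 and 670725 stops, with a median of 55 and 54 per row, and the RNA library held 19182207 reads, with a median of 1346. Each row's CLIP over RNA value is the log2 of its share of all stops over its share of all RNA reads, with 0.5 counts added, so that 0 is an equal share. A row was called high where the value was at least 1 (2-fold) in both replicates and low where it was at most -1 in both. This is a description of size, not a test. The replicates gave medians of 0.10 and 0.09 over all rows. The mean of both had quartiles of -0.80 and 1.08 and ran from -11.00 to 5.50. The replicates lay within 0.5 of each other in 77.6% of rows, and 0 rows were high in one and low in the other, although both share the same RNA library. Of 6535 rows, 1565 were high (23.9%) and 1048 were low (16.0%). The edgeR quasi-likelihood test on the counts, with the lone RNA library assumed to vary like the CLIP replicates, called 2348 rows higher (35.9%) and 1890 lower (28.9%) in CLIP. All high and all low rows were among these. Just inside the high threshold stood Papola (1.29 and 1.00), Lin54 (1.00 and 1.13) and Zfp217 (1.26 and 1.00), and just outside it Tram1 (0.998 and 1.27).

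**Figure D1:**
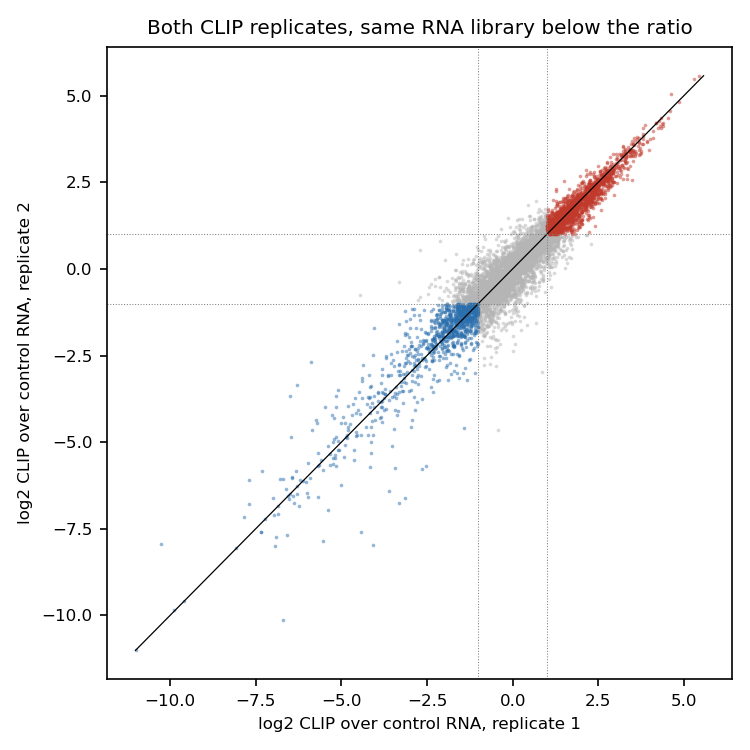
CLIP over control RNA of each row in replicate 1 (x axis, log2) and replicate 2 (y axis, log2), with red points for the 1565 high rows, blue for the 1048 low rows and grey for the other 3922. Points follow the diagonal, more loosely at the low end where stops are few, and no point is high in one replicate and low in the other.

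The RNA library was checked against markers of the labelled cell type. Of 12 markers of pluripotent stem cells, 11 had a row, with 7457 CPM in sum (reads scaled to the column sum), and Nanog had none. Markers of other cells were fewer and lower. Trophoblast had 3 of 7 markers with 77.1 CPM in sum, primitive endoderm 1 of 6 with 10.1, neural cells 3 of 5 with 154 and feeder fibroblasts 1 of 6 (Vim) with 200.3. In these bulk libraries fewer cells of a type and less RNA per cell cannot be told apart.

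Messages for proteins of the ER and secretory route had the highest values. The lists of this route, which include 73 numbered transmembrane proteins drawn by name and not by known place, held 559 rows, with a median of 1.15. Of the 559 rows 288 (51.5%) were high and 26 low, beside 23.9% and 16.0% of all rows. By contrast the 402 rows for cytosolic machinery had a median of -1.30, with 41 high and 216 low, and the 259 rows for mitochondrial proteins a median of -0.99, with 7 high and 99 low. The 901 rows of nuclear lists lay near the middle, with a median of -0.06, 207 high and 172 low. The 4427 rows in no list had a median of 0.14, with 1031 high and 536 low.

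**Figure D2:**
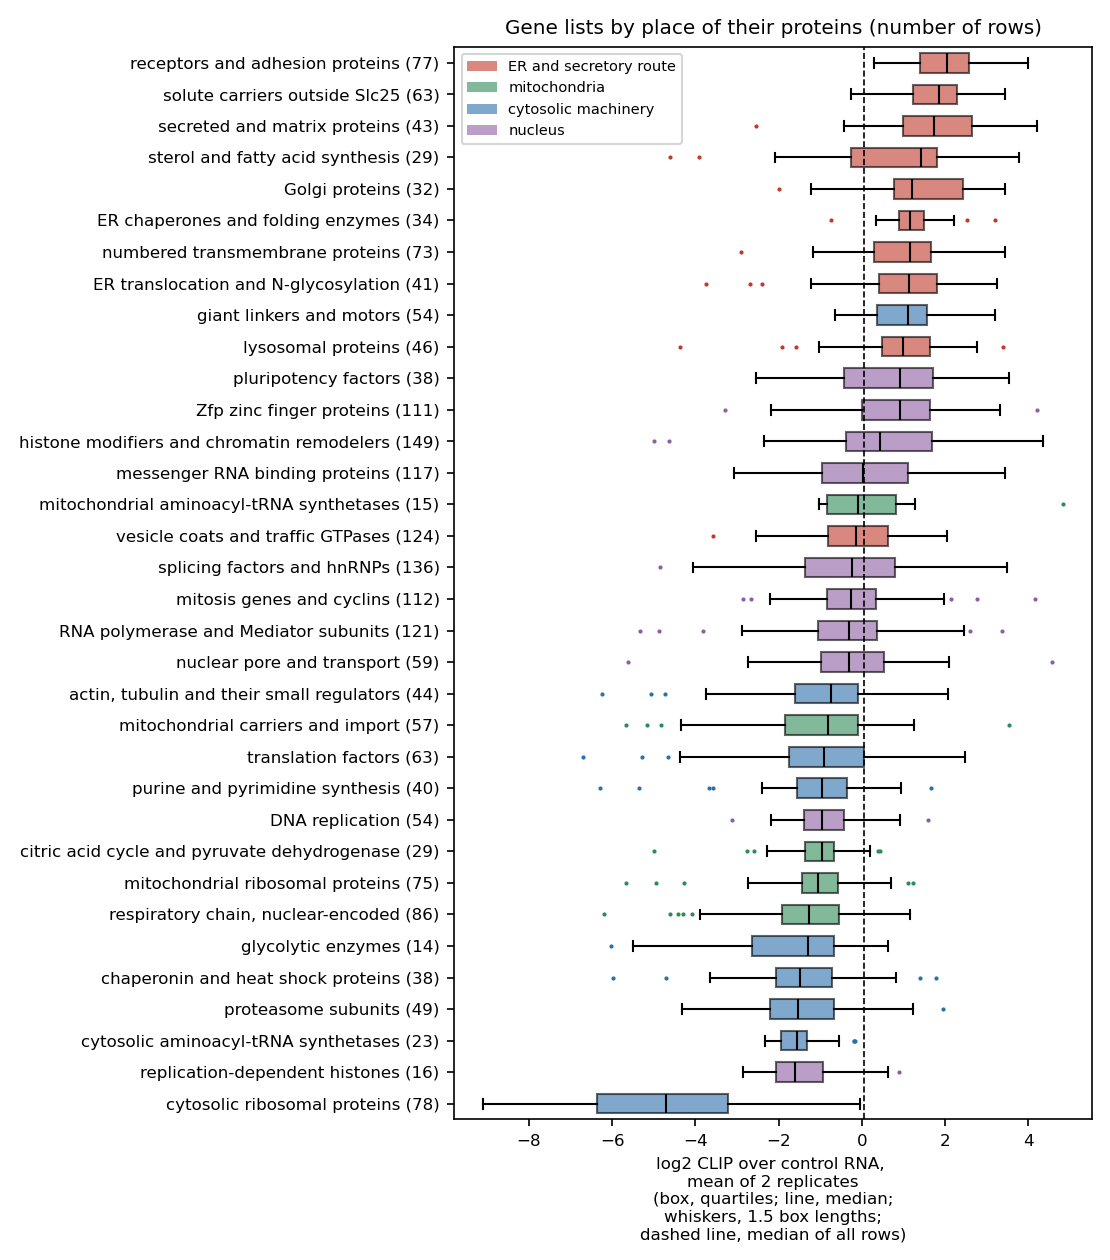
CLIP over control RNA (x axis, log2, mean of 2 replicates) of the rows in each gene list (y axis, number of rows in brackets), with boxes coloured by the place of the proteins. The first 8 lists are of the ER and secretory route, giant linkers and motors follow, vesicle coats and traffic GTPases sit near the dashed median of all rows, and cytosolic ribosomal proteins lie below every other list plotted (the 1-row list of mitochondrially encoded genes is not plotted).

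Receptors and adhesion proteins of the plasma membrane stood first, with a median of 2.05 and 68 of 77 rows high and 0 low. Gpc4, a cell surface heparan sulfate proteoglycan, had 248 RNA reads and 126 and 153 stops, which gave values of 3.85 and 4.14. The insulin-like growth factor receptor Igf1r had 612 reads and 235 and 262 stops (3.44 and 3.62). At the bottom of the list were the endocytic receptor Lrp2 at 0.77 and 0.39 and the integrin Itgb5 at 0.28 and 0.29, the latter with an edgeR adjusted p of 0.57. Every row of the list lay above the median of all rows.

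Solute carriers, which move small molecules across membranes, had a median of 1.85, with 52 of 63 rows high and 0 low. The taurine transporter Slc6a6 had 2073 reads and 817 and 776 stops (3.48 and 3.42), and the creatine transporter Slc6a8 had 1011 reads and 403 and 361 stops (3.50 and 3.35). The zinc transporters Slc30a5 (0.52 and 0.48) and Slc30a9 (-0.07 and -0.47) were the lowest. Slc2a3, a glucose transporter, led all high rows in stops, with 2839 and 2975 against 22953 RNA reads, and its value was 1.81 and 1.89.

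Secreted and matrix proteins had a median of 1.73, with 29 of 43 rows high and 1 low. The basement membrane proteoglycan Hspg2 had 1849 reads and 1290 and 1131 stops (4.30 and 4.13), and the TGF-beta binding protein Ltbp4 had 584 reads and 287 and 248 stops (3.80 and 3.60). Fibronectin (Fn1) had 6701 reads and 2456 and 2250 stops (3.38 and 3.26). The exception was the secreted Nodal antagonist Lefty1, with 2037 reads and only 10 and 14 stops (-2.78 and -2.30). Tdgf1, the GPI-anchored Nodal coreceptor, was at -0.35 and -0.49, but at 0.85 over coding reads. The list was matched by symbol and also took in Htra2, a mitochondrial protease, at 0.90 and 0.51.

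Folding enzymes of the ER lumen had a median of 1.17, with 18 of 34 rows high and 0 low. The disulfide isomerase Pdia3 led with 2580 reads and 785 and 892 stops (3.11 and 3.31), and Clgn, a homologue of calnexin, followed (2.26 and 2.80). The lowest were Creld2 at 0.40 and 0.28 (edgeR adjusted p = 0.26) and Serp1, a small tail-anchored protein of the translocon, at -0.85 and -0.66. Over coding reads in place of all reads Serp1 turned to 2.44. Proteins of ER translocation and N-glycosylation had a median of 1.12, with 19 of 41 rows high and 3 low. Its highest rows were the ER sheet protein Ckap4 (3.23 and 3.26) and the translocon partner Sec63 (2.84 and 2.68).

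Later stations of the route gave similar medians. Golgi proteins had a median of 1.20, with 18 of 32 rows high and 2 low. The glycosyltransferase B4galt6 (3.45 and 3.44) and the proprotein convertase Pcsk6 (3.29 and 3.19) were highest, and Golga7 (-2.26 and -1.71) and Golga5 (-1.24 and -1.22) lowest. Lysosomal proteins had a median of 0.99, with 20 of 46 rows high and 3 low, led by the protease Tpp1 (3.22 and 3.54) and the proton pump subunit Atp6v0a1 (2.72 and 2.83), with the cytosolic pump subunits Atp6v1g1 (-4.81 and -3.95) and Atp6v1f (-2.05 and -1.79) lowest. Numbered transmembrane proteins, a list drawn by name that gives no place in the cell, had a median of 1.17, with 37 of 73 rows high and 1 low. Tmem55b (3.52 and 3.37) and D730040F13Rik (Tmem245; 3.23 and 3.27) stood at the top of that list and Tmem126a (-1.39 and -0.93) and Tmed2 (-2.38 and -3.40) at the bottom.

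Vesicle coats and traffic GTPases, which work on the same route but are made in the cytosol, did not share these values. Their median was -0.15, with 12 of 124 rows high (9.68%) and 12 low, both below the share of all rows. Vps37a (2.16 and 1.94) and Vps25 (2.13 and 1.84), both of the ESCRT machinery, were the highest, and the clathrin adaptor Ap2m1 (-3.46 and -3.68) and Rab7 (-2.97 and -2.11) the lowest.

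Families and complexes with members on both sides of the ER membrane were then set side by side. These sets were drawn up after the class values had been seen, so the direction of the split is no independent support, and each set is a description with all of its measured members. Within the Hsp70 chaperones the ER member Hspa5 (BiP) had 14736 RNA reads and 1770 and 1794 stops, or 1.77 and 1.80. Its cytosolic relative Hspa8 had 94909 reads and 55 and 50 stops, or -5.92 and -6.04. Hspa8 thus had more reads than Hspa5 and far fewer stops in both replicates. The ER nucleotide exchange factor Hyou1 was at 2.16 and 2.28. The other cytosolic members were Hsph1 at 0.01 and 0.33 (edgeR adjusted p = 0.40), Hspa4 at -0.85 and -0.66 and Hspa14 at -1.47 and -1.53, and the mitochondrial Hspa9 was at -2.14 and -2.01.

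The Hsp90 family repeated the pattern. The ER member Hsp90b1 had 13086 reads and 1471 and 1563 stops (1.67 and 1.77). Cytosolic Hsp90aa1 had 104017 reads and 130 and 152 stops (-4.82 and -4.58), cytosolic Hsp90ab1 had 49626 reads and 1219 and 1265 stops (-0.52 and -0.46), and mitochondrial Trap1 had 6397 reads and 85 and 86 stops (-1.40 and -1.37). The cytosolic members differed from each other more than either replicate pair did.

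Smaller folding families showed gaps of different size. For cyclophilins, prolyl isomerases, the ER members Ppic (1.29 and 1.20) and Ppib (0.47 and 0.71) were above 0, whereas the 10 cytosolic or nuclear members had a median of -0.77, with 1 high (Ppig, at 2.07 and 2.47) and 4 low. Mitochondrial Ppif was at 0.92 and 1.34. The FK506-binding proteins had a median of 0.97 for 3 ER members, none of them high, against -0.64 for 5 others. Of the peroxiredoxins, ER Prdx4 was at 0.34 and 0.40 (edgeR adjusted p = 0.21) and the cytosolic members had a median of -2.20 over 3 rows. All 3 have a pseudogene named after them. Mitochondrial Prdx5 was at -0.12 and -0.50 and mitochondrial Prdx3 at -0.57 and -0.96. J-domain cochaperones had medians of 1.09 for 4 ER members, -1.24 for 9 cytosolic or nuclear ones and -1.42 for 5 mitochondrial ones.

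**Figure D3:**
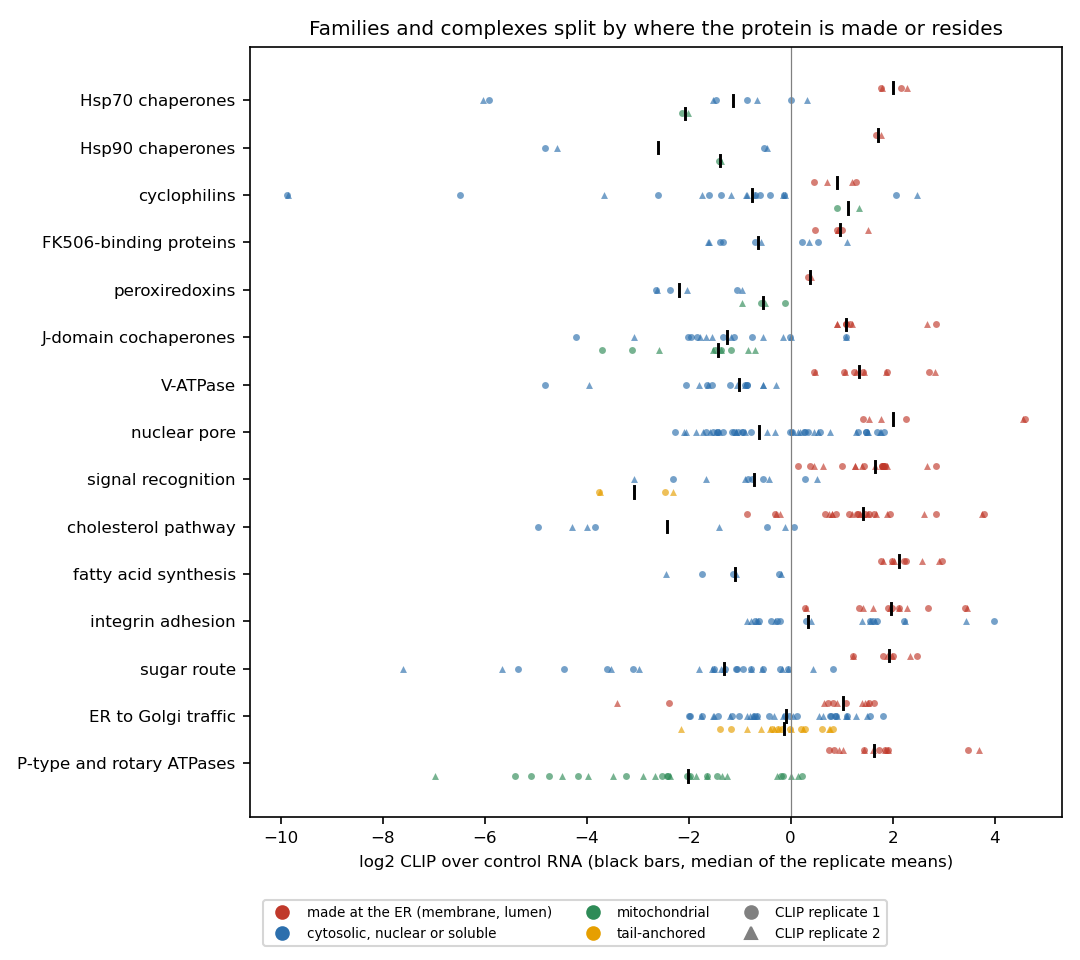
CLIP over control RNA (x axis, log2) for the members of families and complexes (y axis), with circles for replicate 1, triangles for replicate 2, colours for the place of each member and black bars for the median of the replicate means. Members made at the ER lie mostly right of 0 and the cytosolic and mitochondrial members mostly left of it. Integrin adaptors and soluble pore proteins lie on both sides. Of the tail-anchored members, Sec61b and Sec61g lie left of 0 and the SNAREs lie around it (Ykt6, a SNARE held by lipids, is drawn with the tail-anchored ones). The replicate means of the sides overlap in cyclophilins, J-domain cochaperones, nuclear pore, signal recognition, cholesterol pathway, integrin adhesion and ER to Golgi traffic.

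Single protein complexes were split as well. The vacuolar ATPase acidifies lysosomes with a sector in the membrane and a sector on the cytosolic face. Its 6 membrane and accessory rows had a median of 1.35, with 5 high, from 0.46 and 0.47 for Atp6v0b to 2.72 and 2.83 for Atp6v0a1. Its 8 cytosolic rows had a median of -1.0, with 0 high and 3 low, and all 8 were called lower by edgeR. The sides did not overlap: the highest cytosolic row, Atp6v1c1, was at -0.85 and -0.54, and the lowest, Atp6v1g1, with 1986 reads and 2 and 4 stops, was at -4.81 and -3.95. In the nuclear pore the 3 membrane-spanning proteins were all high, namely Pom121 (4.60 and 4.55), Nup210 (2.26 and 1.78) and Tmem48 (Ndc1; 1.43 and 1.54). The 23 soluble pore proteins had a median of -0.62, with 5 high and 8 low, so that the sides overlapped, and against rows of like RNA reads their median was 0.22.

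The machinery that brings ribosomes to the ER was split in the same way. The signal recognition particle is a soluble complex that binds a nascent signal sequence, and its receptor and the translocon sit in the ER membrane. Of 10 rows for the receptor, the translocon and associated membrane proteins, 7 were high and 0 low, with a median of 1.66. Sec61a1, the channel itself, had 5507 reads and 692 and 663 stops (1.83 and 1.78). The 5 subunits of the soluble particle had a median of -0.73, with 0 high and 1 low (Srp9, at -2.30 and -3.07). The small channel subunits Sec61b (3060 reads and 19 and 21 stops) and Sec61g (2866 reads and 7 and 7 stops) were low, at -2.47 and -2.32 and at -3.76 and -3.74. Both are tail-anchored proteins, which are inserted into the membrane after their translation is complete.

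Sterol and fatty acid synthesis had a median of 1.42, with 16 of 29 rows high and 4 low, with enzymes of different places on both sides of 0. Of 13 ER membrane proteins of the cholesterol pathway 8 were high, with a median of 1.42. The transcription factor Srebf2, which is made as an ER membrane protein, was the highest at 3.79 and 3.76. Fdft1 (-0.85 and -0.29) and Insig1 (-0.30 and -0.21) were the ER proteins below 0. The cytosolic enzymes Fdps (3856 reads and 9 and 8 stops) and Idi1 (3059 reads and 3 and 5 stops) were at -3.84 and -3.99 and at -4.95 and -4.28. The other cytosolic ones were closer to 0, with Pmvk at 0.06 and -0.10 (edgeR adjusted p = 0.91) and Mvd at -0.47 and -1.41 (adjusted p = 0.063), so that the sides overlapped. For fatty acids, all 5 ER desaturases and elongases were high, among them Scd2 with 9130 reads and 2520 and 2394 stops (2.97 and 2.91). The cytosolic enzymes were Fasn at -0.23 and -0.19, Acly at -1.12 and -1.06 and Acaca at -1.73 and -2.45, and against rows of like RNA reads their median was 0.14.

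The route of sugar gave the same contrast. Of the 4 glucose and lactate transporters, all were high: Slc2a1 at 2.49 and 2.33, Slc16a3 at 2.01 and 1.98, Slc2a3 at 1.81 and 1.89, and Slc16a1 at 1.22 and 1.22. Glycolytic enzymes, among which PKM2 itself belongs, had a median of -1.30, with 0 of 14 rows high and 8 low. Hexokinases were the highest, with Hk1 at 0.83 and 0.44 (edgeR adjusted p = 0.17) and Hk2 at -0.06 and -0.05 (adjusted p = 0.75). Pgk1 had 22381 reads and 19 and 15 stops (-5.34 and -5.66), and Pgam1 had 13817 reads and 22 and 2 stops (-4.44 and -7.59). The Pkm message itself, listed as Pkm2, had 85247 reads and 249 and 259 stops, so that it was low at -3.59 and -3.52, or 11.8-fold below its share of RNA. The tag is on this protein in the CLIP cells only, and no value here tells transcripts of the tagged gene from those of the untagged one.

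Other membrane complexes followed. Integrins, which bind the matrix, had a median of 1.97, with 6 of 7 high. Their cytosolic adaptors had a median of 0.35, with 5 of 11 high and 0 low, and reached 3.98 and 3.44 for Parvb, so that this pair overlapped. In traffic from ER to Golgi, p24 cargo receptors had a median of 1.03 over 6 rows, with Tmed2 as the low member. Coat subunits had a median of -0.10 over 19 rows and the SNAREs, tail-anchored apart from the lipid-anchored Ykt6, a median of -0.13 over 10 rows. Ion and lipid pumps of the plasma membrane, ER and Golgi had a median of 1.64, with 5 of 7 high, among them the sodium pump subunit Atp1b1 (3.48 and 3.69). The mitochondrial ATP synthase, also a membrane enzyme, had a median of -2.02, with 0 of 15 high and 12 low.

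High values were not limited to the secretory route. Giant linkers and motors of the cytoskeleton, proteins with very long coding sequences, had a median of 1.10, with 26 of 54 rows high and 0 low. The scaffold Akap9 was at 3.32 and 3.08, plectin (Plec) at 3.01 and 2.67, and Macf1, with 10183 reads and 2059 and 1898 stops, at 2.52 and 2.41. The lowest were the talins Tln2 (-0.22 and -0.85) and Tln1 (-0.63 and -0.64). Golgb1 is in this list and in the Golgi list.

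Nuclear classes differed from each other. Zinc finger proteins named Zfp had a median of 0.91, with 45 of 111 high and 7 low, led by Zfp609 (4.33 and 4.08) and Zfp871 (3.22 and 3.40), with Zfp330 (-2.89 and -3.69) and Zfp277 (-2.54 and -1.84) lowest. Histone modifiers and chromatin remodelers had a median of 0.45, with 57 of 149 high and 16 low. The histone methyltransferases Mll2 (Kmt2d; 1095 reads and 785 and 780 stops) and Wbp7 (Kmt2b; 784 reads and 579 and 476 stops) were at 4.34 and 4.35 and at 4.39 and 4.12. At the other end were the deacetylase Hdac1, with 4530 reads and 4 and 5 stops (-5.15 and -4.85), and the heterochromatin protein Cbx3 (-4.44 and -4.81), which has 6 named pseudogenes. Replication-dependent histones had a median of -1.61, with 0 of 16 high and 11 low. Their lowest rows were the linker histones Hist1h1b (-2.88 and -2.81) and Hist1h1a (-2.55 and -2.61), and the H4 genes Hist1h4f (0.78 and 1.03) and Hist1h4d (0.58 and 0.66) were highest. Histone genes have near-identical copies, and the assignment of reads among them is uncertain.

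Pluripotency factors were divided. Their median was 0.92, with 18 of 38 rows high and 7 low. The transcription factor Tbx3 was at 3.54 and 3.56, and the methylcytosine dioxygenase Tet1, with 8017 reads and 2543 and 2672 stops, at 3.17 and 3.25. Dppa4 was low, with 4296 reads and 30 stops in each replicate (-2.32 and -2.30), as was Lefty1.

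RNA processing proteins had members at both ends of the scale, as did all rows, of which 23.9% were high and 16.0% low. Splicing factors and hnRNPs had a median of -0.24, with 25 of 136 high (18.4%) and 38 low (27.9%). The large SR-related protein Srrm2 had 5116 reads and 2309 and 1745 stops (3.68 and 3.29) and Rbm14 was at 3.20 and 2.99, whereas Hnrnpf, with 33307 reads and 41 and 39 stops, was at -4.83 and -4.88 and the small U1 protein Snrpc at -4.39 and -3.73. Messenger RNA binding proteins had a median of 0.04, with 29 of 117 high (24.8%) and 24 low (20.5%), near the shares of all rows. Rows of the list ran from Atxn2l (3.36 and 3.52) and Atxn2 (2.95 and 2.97) to the helicase Ddx18 (-3.13 and -3.03) and the La-related protein Larp7 (-2.87 and -2.55). Binding to messages was not checked for each member, so this spread is that of the list. RNA polymerase and Mediator subunits had a median of -0.30, with 16 of 121 high (13.2%) and 23 low (19.0%). The list also took in initiation factors that belong to neither, such as Taf3 of TFIID and Taf1a, a TATA box-binding protein-associated factor. The largest subunit of RNA polymerase II, Polr2a, was at 3.41 and 3.34, and Taf3 was at 2.51 and 2.70. The small subunit Polr2k had 5 and 0 stops on 1387 reads, and Taf1a had 0 in both on 574 reads, which with a floor of 3 counts makes it at least 6.76-fold lower in replicate 1 and at least 6.69-fold lower in replicate 2.

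Nuclear transport and the cell cycle lay at or below the middle. Nuclear pore and transport proteins had a median of -0.31, with 11 of 59 high and 13 low. Behind Pom121 came the importin Ipo13 (2.27 and 1.94), and the importin alpha Kpna2 (-5.02 and -6.23) and the GTPase Ran (-2.82 and -2.64) were lowest. Mitosis genes and cyclins had a median of -0.27, with 9 of 112 high and 16 low. The proliferation antigen Mki67 had 935 reads and 619 and 551 stops (4.23 and 4.08), the kinetochore protein Cenpf was at 2.73 and 2.82, and Ccnb1 (-3.05 and -2.66) and Cks2 (-2.53 and -2.81) were at the bottom. DNA replication proteins had a median of -0.95, with 1 of 54 high (Mcm9, at 1.71 and 1.48) and 18 low. Orc4 was at 0.93 and 0.89, and Rpa3 (-3.14 and -1.23) and the sliding clamp Pcna (-3.19 and -3.04) were the lowest of that list.

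Mitochondrial lists were low although many of their proteins end in a membrane. Nuclear-encoded respiratory chain subunits had a median of -1.27, with 1 of 86 high (Uqcrq, at 1.26 and 1.08) and 41 low. Cox6a1 was next at 0.82 and 0.98, and the ATP synthase subunits Atp5g1 (4142 reads and 5 and 6 stops) and Atp5g2 (5375 reads and 4 and 1 stops) were the lowest. Mitochondrial ribosomal proteins had a median of -1.04, with 2 of 75 high, Mrpl17 (1.32 and 1.16) and Mrps2 (1.14 and 1.07), and 30 low. Mrpl48 had 0 stops on 716 reads and Mrpl23 had 1 and 0 on 755.

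Carriers and import subunits of mitochondria had a median of -0.82, with 2 of 57 high and 19 low. The high rows were the inner membrane carrier Ucp2 (3.74 and 3.35) and Tomm6 (1.10 and 1.39), and the import subunits Timm8a1 (3727 reads and 1 and 4 stops) and Timm23 (9078 reads and 9 and 8 stops) were lowest. For the citric acid cycle and pyruvate dehydrogenase the median was -0.95, with 0 of 29 high and 9 low. Citrate synthase (Cs) was the highest at 0.43 and 0.44, ahead of Pcx at 0.01 and 0.75 (edgeR adjusted p = 0.33), and the pyruvate carrier subunit Brp44l (Mpc1; 3 and 0 stops) and Got2 (-2.72 and -2.82) were lowest. Mitochondrial aminoacyl-tRNA synthetases stood apart from these, with a median of -0.09, 2 of 15 high and 0 low. The high ones were Lars2, with 340 reads and 298 and 390 stops (4.63 and 5.04), and Vars2 (1.41 and 1.16), and the lowest were Tars2 (-0.69 and -1.35) and Cars2 (-1.32 and -0.70). The only row of the mitochondrial genome, mt-Nd4, which the file describes as chain 4L, had 10873 reads and 0 stops in both replicates, or at least 128-fold and 127-fold lower than its share of RNA. Of these reads 82.3% were assigned to a 3′ UTR and only 1560 to the coding sequence, so the fold rests mostly on the former.

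Cytosolic machines were low nearly throughout. The 23 cytosolic aminoacyl-tRNA synthetase rows had a median of -1.56, with 0 high and 18 low. Sars (-2.61 and -2.06) and Tars (-2.59 and -2.07) were the lowest, and Iars (-0.15 and -0.17) and Qars (-0.31 and -0.05), with edgeR adjusted p of 0.37 and 0.34, the highest. Proteasome subunits had a median of -1.54, with 32 of 49 low and 2 high, the activator Psme3 (2.00 and 1.89) and the inhibitor Psmf1 (1.16 and 1.31), neither of which is part of the core particle. The core subunits Psmb3 (6545 reads and 10 and 12 stops) and Psmb5 (5898 reads and 8 and 15 stops) were at -4.46 and -4.19 and at -4.62 and -3.73. Chaperonin and heat shock proteins had a median of -1.48, with 24 of 38 low and 2 high, the transcription factor Hsf1 (1.49 and 1.29) and the chaperone Bat3 (Bag6; 1.86 and 1.71).

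Metabolic and cytoskeletal proteins were somewhat less low. Purine and pyrimidine synthesis had a median of -0.95, with 1 of 40 high (Tyms, at 1.76 and 1.58) and 17 low. Impdh1 was at 0.74 and 1.13, its paralogue Impdh2, with 15653 reads and 14 and 12 stops, at -5.25 and -5.45, and the salvage enzyme Hprt had 0 stops on 1105 reads, at least 13.0-fold and 12.9-fold lower. Actin, tubulin and their small regulators had a median of -0.73, with 2 of 44 high, Dynll1 (1.95 and 2.20) and Cfl2 (1.13 and 1.09), and 15 low. Cytoplasmic gamma-actin (Actg1) had 16027 reads and 6 and 8 stops (-6.44 and -6.04), and Capza1 was at -4.64 and -5.51.

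Translation factors had a median of -0.90, with 8 of 63 high and 28 low. The Argonautes Eif2c2 (Ago2; 2.40 and 2.58) and Eif2c1 (Ago1; 2.27 and 2.34), which act in RNA silencing and carry factor names in this table, were the highest. The elongation factor subunit Eef1g had 42853 reads and 41 and 36 stops (-5.19 and -5.36), Eif3j had 3312 reads and 2 and 0 stops, and the initiation helicase Eif4a1 had 70784 reads and 104 and 138 stops (-4.58 and -4.16).

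Cytosolic ribosomal proteins were the lowest list of more than 1 row. Their median was -4.70, with 74 of 78 rows low and 0 high, and edgeR called 75 lower. Rps27 had 17407 reads and 0 and 2 stops, Rps28 had 16143 reads and 5 and 0 stops, and Rpl24 had 19192 reads and 2 stops in each replicate. Rpl24 was thus 270-fold below its share of RNA, with a 95% interval from the counts of 132 to 1238 that covers counting error only. Also among the 12 lowest rows of the table were Rpl23a (22513 reads and 3 and 5 stops), Rps3a (52663 reads and 11 and 9 stops), Rpl19 (32888 reads and 9 and 4 stops) and Rpl11 (20599 reads and 3 and 6 stops). Rpsa had 67729 reads and 64 and 120 stops (-5.21 and -4.30). The highest rows, Rps26 (2173 reads and 75 and 73 stops) and Rpl21 (1389 reads and 41 and 51 stops), were at -0.02 and -0.05 and at -0.24 and 0.08, and neither was called by edgeR (adjusted p = 0.87 and 0.80). Messages of this class often begin with a C and a run of pyrimidines, the 5′ terminal oligopyrimidine motif, which is known for the control of their translation. To show that start, the windows around the RefSeq start (GRCm38.p6) are printed for 4 of its low members and for the high ER chaperones Hspa5 and Hsp90b1. The 4 are the lowest of those low members that have the motif at a listed start, so they were chosen for it. The chaperones were chosen without regard to the motif, so the windows show its letters and do not compare the classes. Each window has 10 bases before the start and 20 from it, and capitals mark the run that begins at the start.
Rps27, chr3:90213629-90213658, minus strand: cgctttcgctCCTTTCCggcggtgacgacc
Rpl35, chr2:39005112-39005141, minus strand: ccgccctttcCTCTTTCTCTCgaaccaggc
Rpl28, chr7:4792955-4792984, plus strand: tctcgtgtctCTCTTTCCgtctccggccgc
Rps6, chr4:86857348-86857377, minus strand: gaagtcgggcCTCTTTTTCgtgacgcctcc
Hspa5, chr2:34772080-34772109, plus strand: gacggcgcgctcgatactggccgagacaac
Hsp90b1, chr10:86705425-86705454, minus strand: accgcgctgctggaggtgtgaggagcttag

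The motif was searched at the start position itself, on the strand of the gene, as a C followed by at least 4 pyrimidines. Of 78 ribosomal protein rows 59 matched the start table and 12 of them (20.3%) had the motif at a listed start, against 161 of 5322 matched rows in all (3.03%) and 823 of 32851 start windows in the table (2.51%). Among low rows outside the ribosomal proteins the share was 3.27%, and among high rows it was 3.26%. A match is a description of these letters, since RefSeq starts can lie some bases from the start in use, and no match says only that the letters were not at the listed start.

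Near-identical copies touch this class in particular. A gene whose pseudogene is named after it was found for 60 of the 78 ribosomal protein rows, and the median of the others was -3.72. Over all rows 3.84% had such a pseudogene, against 1.41% of high and 15.6% of low rows. Outside this class they were found for 5 of the 14 glycolytic enzyme rows, among them Pgk1 and Pgam1. The low rows Hdac1, Impdh2, Kpna2, Pcna and Ptma had them too. Many pseudogenes carry other names, and how reads with several matches were handled was not given, so the part of copies in the low values was not tested. Ppia, a gene with 66249 reads and 2 stops in each replicate (-9.87 and -9.86), and the row Pol, a LINE-1 polyprotein with 29136 reads and 0 stops, at least 343-fold and 340-fold lower, were the lowest rows of the table and belong to sequences with many copies in the genome.

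**Figure D4:**
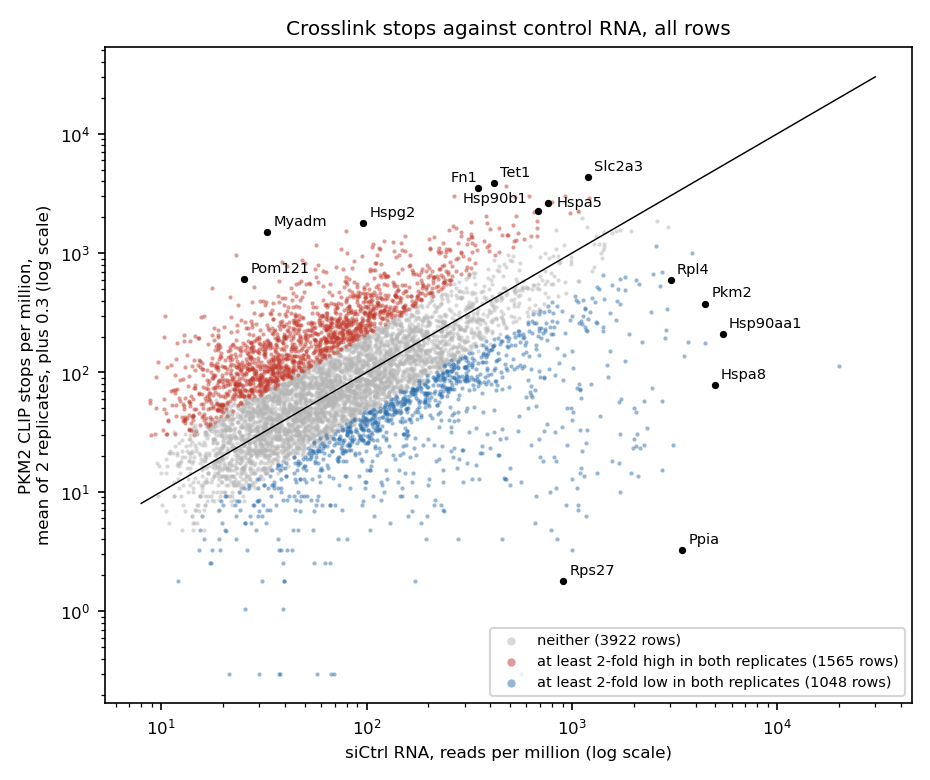
PKM2 CLIP stops (y axis, CPM, log scale, mean of 2 replicates plus 0.3) against control RNA reads (x axis, CPM, log scale) for every row, with high rows in red, low rows in blue and an equal share on the black line. Slc2a3, Hspa5 and Hsp90b1 lie above the line, and Hspa8, Hsp90aa1, Pkm2, Rpl4, Ppia and Rps27 lie below it.

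The 12 rows with the highest values came from several classes. Myadm, a membrane protein of the cell surface, had 632 reads and 966 and 1052 stops (5.43 and 5.57), 45.4-fold above its share of RNA. It was followed by ORF19 (Washc1), of the WASH complex on endosomes, at 5.29 and 5.49. Then came Ankrd52, a regulatory subunit of a phosphatase, at 4.85 and 4.82, Lars2, Pom121, Leng8 at 4.54 and 4.35, Mll2, the kainate receptor subunit Grik3 at 4.39 and 4.20, the transcription factor Zfhx3 at 4.35 and 4.18, AU018091, described as a cationic amino acid transporter, at 4.27 and 4.26, Wbp7 and Hspg2. Of the 8 high rows with the most stops, Nufip2 (2.26 and 2.30) and Nucks1 (1.62 and 1.77) are in none of the lists.

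Outside the ribosomal proteins, the 12 lowest rows held Sumo2, a small protein modifier, with 15233 reads and 4 and 2 stops (-6.90 and -7.74). They also held 1200014J11Rik (Ncbp3), the row with the most RNA reads, 382228, of which 99.7% fell in its 3′ UTR. Over all reads it was at -7.35 and -7.59, but over coding reads its mean was 0.20. Prothymosin alpha (Ptma), with 85709 reads and 102 and 136 stops (-4.88 and -4.46), and the ribosomal scaffold Gnb2l1 (Rack1), with 73644 reads and 628 and 719 stops (-2.05 and -1.84), were among the 8 low rows with the most reads.

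CLIP over RNA moved with the RNA level, which is also the denominator. Rows were cut into deciles by their RNA reads, which depend on length as well as abundance. The median fell step by step from 0.91 in the decile with the fewest reads to -1.23 in the decile with the most, with 261 high and 19 low rows in the first and 54 high and 344 low in the last. Spearman's rho between the mean value and RNA reads was -0.38 across the 6535 rows, which share libraries and are not independent. Median RNA was 47.1 CPM in high rows, 178 in low rows and 70.2 in all.

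**Figure D5:**
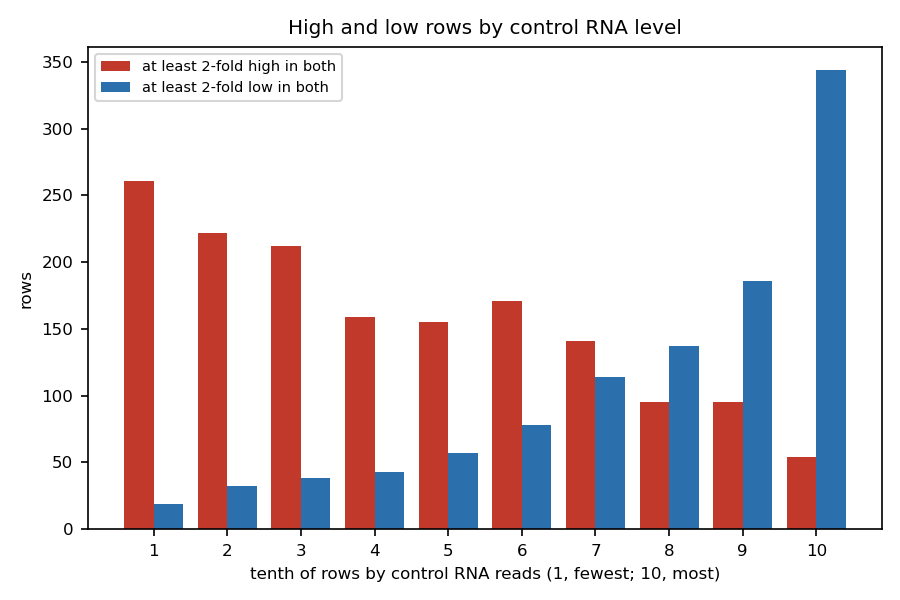
Number of high (red) and low (blue) rows (y axis) in each decile of rows by control RNA reads (x axis, 1 for the fewest and 10 for the most). High rows fall from 261 to 54 and low rows climb from 19 to 344 across the deciles.

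Classes were therefore also set against rows in their own decile of RNA reads. The difference of the class member from the median of its decile had a median of 1.84 for receptors and adhesion proteins, 1.68 for solute carriers, 1.61 for secreted and matrix proteins, 1.31 for proteins of ER translocation and N-glycosylation and 1.19 for ER chaperones. It was -3.61 for cytosolic ribosomal proteins, -1.21 for mitochondrial ribosomal proteins, -0.96 for proteasome subunits and -0.93 for the respiratory chain. Cytosolic lists with abundant messages came closer to the middle, with -0.73 for cytosolic aminoacyl-tRNA synthetases, -0.60 for glycolytic enzymes and -0.32 for translation factors. Splicing factors (0.05), nuclear pore and transport proteins (0.34) and messenger RNA binding proteins (0.48) changed sign relative to all rows. Of the sides of families and complexes, the soluble pore proteins and the cytosolic fatty acid enzymes did so. Some others came near the middle, with -0.24 for cytosolic Hsp70 chaperones, -0.15 for mitochondrial Trap1 and -0.23 for cytosolic or nuclear FK506-binding proteins. Cytosolic Hsp90 chaperones were at -1.36. The ER sides of the Hsp70, Hsp90 and FK506-binding families were at 2.89, 2.95 and 0.37.

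Other features of the messages differed between high and low rows. In the RNA library the median share of reads in the 3′ UTR was 32.2% for high rows, 19.0% for low rows and 26.2% for all. The log2 translation efficiency in siCtrl cells, the share of coding footprints in the siCtrl ribosome library over the share of coding RNA reads, had a median of 0.13 in high rows, -0.21 in low rows and -0.18 in all. Spearman's rho with the mean CLIP over RNA value was 0.18 for the 3′ UTR share and 0.19 for translation efficiency, again across rows of shared libraries. The RNA reads of siCtrl enter all of these measures, and their part in the class values was not tested.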

How the data were processed

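The authors deposited 1 table for the series, processed with cutadapt and Bowtie2 against the mouse mm9 build, per the submitters' processing notes. The sources used here give no version, counting tool, strand setting or rule for multiply matching reads. Stops and RNA reads per transcript are raw counts, per the file headers, and the authors' CLIP enrichment is given as deposited log2 values. Each row had at least 169 RNA reads, and 0 columns lacked a sample.

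Counts were divided by column sums after adding 0.5, and log2 differences taken with Python 3.11.15. Control translation efficiency was computed from coding counts of the siCtrl footprint and RNA libraries. A count of 0 allows up to 3 counts per library. Rows were tested with edgeR 4.0.16 (R 4.3.3; quasi-likelihood, column sums as library sizes, Benjamini-Hochberg over all rows, threshold 0.05). DESeq2 1.42.0, TMM factors, other pseudocounts, filters and denominators, and leaving out each CLIP replicate were tried as alternatives, and the edgeR script was tested on simulated data. Intervals cover counting error only, because reads made by PCR are not independent molecules. The replicates differed by more than counting noise (chi-square per degree of freedom 1.96 over 6437 rows).

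The comparison, its 35 lists and the choice of members were made with earlier results of these data known, so no list was tested. Text names the 12 highest and 12 lowest rows, the 2 highest and 2 lowest of each list, the 8 high rows with most stops, the 8 low rows with most reads, and Pkm. Families and description keywords were added after class values were seen. Identifiers of 6469 rows matched a RefSeq gene table of GRCm38.p6, which gave a different current symbol for 640.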

Additional observations from a re-analysis of the deposited data

How the results depend on the processing

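The high count was 1565 and the low count 1048. At a 4-fold threshold 522 rows were high and 339 low, at a 1.5-fold threshold 2178 and 1622, and among rows with at least 40 stops in each CLIP replicate 1433 and 368, which leaves out rows with few stops by construction. Without CLIP replicate 1 or 2 there were 1767 to 1807 high and 1307 to 1369 low rows, with no test. The share of high among called rows was 59.9%, and 52.7% with TMM factors, which moved the median of all rows by -0.15. It was 68.1% with 5 counts added, which moved that median by 0.17, 66.0% with at least 10 stops and 79.6% with at least 40. DESeq2 called 1698 rows higher and 1251 lower, and edgeR with TMM factors 2117 and 2179, and the cause was not tested. Of the list medians relative to all rows, that of mitochondrial aminoacyl-tRNA synthetases changed sign, to 0.27 with at least 40 stops and to 0.075 and 0.11 without replicate 1 and 2. Those of splicing factors (0.051), nuclear pore and transport (0.34) and messenger RNA binding proteins (from -0.029 to 0.48) changed sign against rows of like RNA reads. Over coding reads the row 1200014J11Rik went to 0.20, Serp1 to 2.44, Tdgf1 to 0.85, Itgb5 to -0.11, Pcx to -0.03, Rpl21 to 0.51 and Hk2 to 0.41, each with a change of sign, and Rpl21 went to 0.084 without replicate 1. The other list medians kept their direction under the alternatives run on them. So did the other genes picked by the naming rule. These genes were run with 1 count added, centred on the median of all rows, over coding reads and without each replicate. Genes named for other reasons were not run, among them those given only for families or as other observations. The authors' own log2 enrichment in the authors' deposited table was at least 1 in both replicates for 1963 rows and at most -1 for 752. These held 100% of the high and 71.8% of the low rows, with a median 0.27 above the values used here. Adjustment for protein length was not run, because no protein table was used here. No paired analysis was possible because the RNA group has 1 library and no replicate number to share. With 0 stops in both replicates a row is limited to 4.43 and 4.47 CPM.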

Other observations

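Words in the file's own description of each row gave classes that do not depend on the gene lists, although they were drawn up after the list values had been seen. Rows described as a precursor and not as mitochondrial, the usual mark of a signal peptide, numbered 240. Their median CLIP over RNA was 1.36, with 142 high (59.2%) and 16 low, the lowest being Sumo2, a modifier whose precursor is clipped in the cytosol. Of these, 130 rows were in no list, and they had a median of 1.19, with 69 high and 8 low. Descriptions with a transporter or channel gave 55 rows with a median of 1.62, 42 of them high and 2 low, the lowest being the mitochondrial channel Vdac3. Receptors gave 105 rows with a median of 1.28, 59 high and 5 low, the lowest being Tomm20, the import receptor of mitochondria. The highest was Leng8, which is described as a leukocyte receptor cluster member and matched by that word alone. Rows described as mitochondrial numbered 271, with a median of -0.81, 10 high and 86 low. Signalling and regulatory classes lay closer to the median of all rows: kinases at 0.12 (254 rows, 50 high and 22 low), ubiquitin ligases and conjugating enzymes at 0.09 (107 rows, 19 high and 9 low) and transcription factors at 0.28 (82 rows, 24 high and 9 low). Zinc finger proteins were at 0.67 (211 rows, 72 high and 12 low).

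Rows outside every list also reached both ends of the scale, and among them Mia3 stood against its place. Mia3, a large ER membrane protein that loads collagen into carriers, had 1283 RNA reads and 0 stops in both replicates, at least 15.1-fold and 15.0-fold lower. Brox (1333 reads) and the fatty acid binding protein Fabp5 (731 reads) also had 0 stops in both replicates, and Ahcy, the enzyme that clears S-adenosylhomocysteine, had 12635 reads and 3 and 4 stops. High rows outside every list included the transcription factors Foxp4 (4.18 and 4.20) and Gm98 (Myrf; 3.82 and 4.07), the latter a membrane-bound factor of the ER, and the histone chaperone subunit Ubn2 (3.80 and 3.88). These rows were chosen after their values were seen.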
